A study of Homo sapiens with 12 samples.

Results

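The E2F transcription factors E2F1 to E2F8, the pocket protein RBL1 and the E2F partner TFDP1 were followed in 2 ovarian cancer cell lines treated with THZ1, a covalent inhibitor of the transcriptional kinases CDK7, CDK12 and CDK13. These 10 genes were taken by exact symbol from the expression tables, which hold 23621 genes, and all 10 were found for both lines. The RNA-seq data comprise 12 libraries of polyA RNA from KURAMOCHI (Ku) and COV362 (Cov) cells, both labelled as untransduced controls. Each line has 2 replicates of the vehicle DMSO, 2 of 50 nM THZ1 and 2 of 250 nM THZ1, all taken at 6 hr. Ku cells were grown in RPMI and Cov cells in DMEM. The values are FPKM, a read density corrected for transcript length and library size, which the authors normalized to ERCC spike-in RNAs added to RNA matched by cell count, separately for each line. The labels do not say whether replicates came from separate cultures, so p-values measure the spread between these libraries, which may be technical.

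E2F proteins control genes that cells need to enter S phase and to divide. Most of them bind DNA together with a DP partner such as TFDP1, and the pocket proteins RB1, RBL1 and RBL2 bind them and hold their targets silent until cyclin-dependent kinases phosphorylate the pocket proteins in G1. E2F1, E2F2 and E2F3 are known as activators, E2F4 and E2F5 as repressors that work with RBL1 and RBL2, E2F6 as a repressor that needs no pocket protein, and E2F7 and E2F8 as atypical repressors that bind DNA without a DP partner.

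A gene was counted as active once any of the 12 libraries held it above 1 FPKM, which gave 14251 genes, all 10 among them. FPKM summed over genes was lower at each higher dose, from 1227780 to 1234308 in Ku DMSO libraries to 607016 to 662890 at 250 nM, and from 1472395 to 1686567 to 758681 to 764273 in Cov cells. Replicates correlated with Pearson's r of 0.968 to 0.983 across active genes on the log2 scale. Of 8 epithelial ovarian markers, 6 were above 1 FPKM in Ku DMSO cells, where MUC16 and CDH1 were not, and 7 in Cov DMSO cells, where WT1 was not. Of markers of other cell types, 1 of 4 blood, 2 of 3 endothelial and 1 of 4 fibroblast genes were above 1 FPKM in Ku DMSO cells, with list sums of 1.88 to 2.06, 10.3 to 11.8 and 2.83 to 2.97 FPKM. In Cov DMSO cells 0, 1 and 2 were, with sums of 0.866 to 1.18, 8.43 to 8.95 and 43.7 to 47.5 FPKM. These sums were lower at 250 nM in both lines, PTPRC, CD3E, PECAM1, DCN and LUM were under 1 FPKM in every group, and the part of such RNA in the results was not tested. Depth is unknown, because the tables hold no counts. In bulk RNA, fewer cells of a type and less RNA per cell cannot be told apart.

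In DMSO the family was led by TFDP1, E2F1, E2F4 and E2F3 in both lines, and E2F5 stood with them in Ku cells. TFDP1, which encodes the DP1 partner, measured 83.7 and 76.9 FPKM in the Ku replicates and 101.0 and 114.3 FPKM in the Cov replicates. In Ku cells E2F1 (39.3 ± 1.5 FPKM, SD, n = 2), E2F5 (37.0 ± 3.0), E2F4 (35.1 ± 3.6) and E2F3 (32.8 ± 3.3) followed, and each overlapped its neighbour in this order. E2F6 (13.1 ± 1.9), RBL1 (12.5 ± 2.6), E2F8 (12.3 ± 0.47) and E2F2 (11.1 ± 1.4) formed a lower group in which neighbours also overlapped. E2F7 was the lowest, at 4.66 and 3.44 FPKM. In Cov cells the order ran E2F1 (75.1 ± 3.1), E2F4 (42.0 ± 2.8), E2F3 (32.1 ± 1.3), E2F5 (16.9 ± 1.0), E2F2 (15.8 ± 0.72), E2F7 (13.7 ± 0.82), E2F6 (12.2 ± 1.1) and RBL1 (9.15 ± 0.74), and only E2F5 and E2F2 overlapped as neighbours. E2F8 stood apart in Cov cells, at 0.102 and 0.110 FPKM. The tables of the lines were normalized separately, so these levels stand side by side and the lines were not tested against each other.

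**Figure D1:**
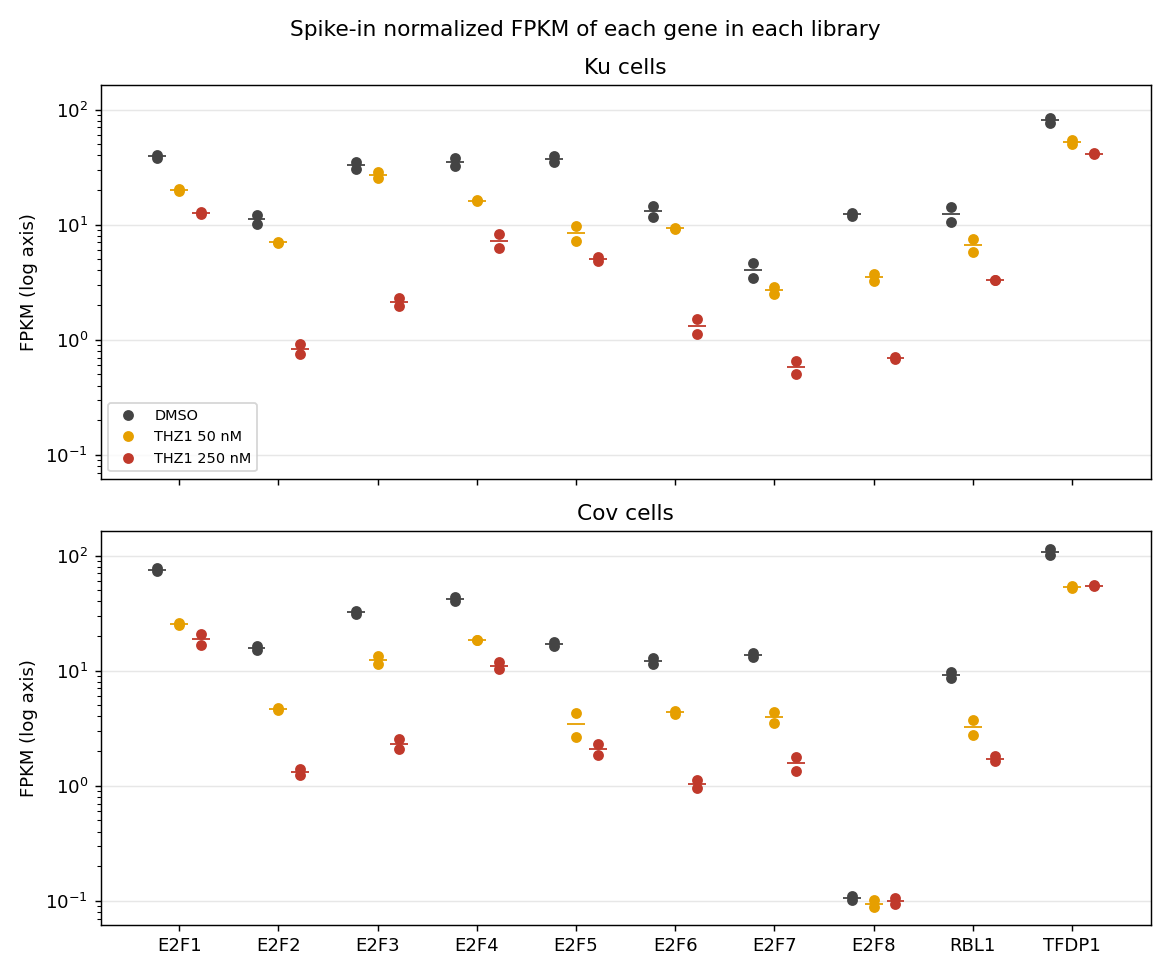
Spike-in normalized FPKM (log axis) of the 10 genes in each of the 12 libraries, with a dot for each replicate and a short line at the mean of 2. The Ku libraries lie in the order DMSO, 50 nM, 250 nM for all 10 genes, the Cov libraries for 8 of them, and E2F8 in Cov cells stays between 0.0890 and 0.110.

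The genes lie on different chromosomes for the most part. On GRCh37 (GENCODE) E2F1 spans chr20:32263283-32274191 and RBL1 chr20:35624752-35724400, both on the minus strand. E2F2 is at chr1:23832930-23857725 (minus), E2F3 at chr6:20402110-20493945 (plus), E2F4 at chr16:67226058-67232821 (plus), E2F6 at chr2:11584501-11606303 (minus), E2F7 at chr12:77415028-77459349 (minus), E2F8 at chr11:19245610-19263167 (minus) and TFDP1 at chr13:114239036-114295788 (plus). These genes, and E2F5, are annotated as protein coding.

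Several E2F genes are known to be targets of E2F factors themselves, and promoters of the family are shown here for that reason. Whether the motifs bear on the response to THZ1 was not tested. RefSeq promoter sequences (GRCh38.p14) were at hand for 8 of the 10 genes, with 9 start sites, and each was found once in GRCh37. The 250 bases before each start were searched on both strands for 4 spellings of the E2F motif, TTTCCCGC, TTTCGCGC, TTTGCCGC and TTTGGCGC. At least 1 of these was found in 5 of the 8 genes, where any start site of a gene counted. Counted by promoter and not by gene, the shares were 2.79% of all 35116 promoters and 4.02% of those of active genes. The stretches that hold the motif are given 5′ to 3′ on the strand of the gene, with the motif or its reverse complement in capitals. They are located on GRCh37.
E2F1, chr20:32274192-32274244, minus: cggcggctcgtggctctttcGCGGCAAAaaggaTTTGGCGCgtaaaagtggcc
E2F2, chr1:23857740-23857787, minus: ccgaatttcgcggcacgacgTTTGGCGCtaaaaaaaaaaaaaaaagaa
E2F3, chr6:20402037-20402084, plus: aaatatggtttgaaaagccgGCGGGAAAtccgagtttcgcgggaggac
RBL1, chr20:35724401-35724446, minus: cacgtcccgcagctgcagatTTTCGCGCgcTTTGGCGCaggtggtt
TFDP1, chr13:114238928-114238975, plus: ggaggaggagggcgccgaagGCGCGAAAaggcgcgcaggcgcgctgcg

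E2F1 and RBL1 hold 2 matches each, the first starting 33 and 26 bases before the start site. The single matches lie 42 bases before the start in E2F2, 53 in E2F3 and 120 in TFDP1. The letters TTTGAA of the CHR element, a site known from promoters of G2/M genes, were found in 1 of the 8 genes, E2F3, and in 13.3% of all promoters. The E2F3 match came from the first of its 2 start sites. No spelling was found in these windows of E2F4, E2F6 or E2F7. A match of letters is a description and does not show binding. At 250 nM the 5 genes with a match spanned the log2 fold changes from -3.42 (E2F3) to -0.94 (TFDP1) in Ku cells, and the 3 without one lay between -2.60 (E2F6) and -1.66 (E2F7).

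To ask how the family responds to THZ1, each dose was compared with DMSO within each line on log2(FPKM + 1), and a call needed a limma adjusted p under 0.001 together with a log2 fold change larger than 0.5 in size. At 250 nM all 10 genes fell in Ku cells, and 9 fell in Cov cells, all but E2F8. Most active genes fell too: at this dose 68.6% of those in Ku and 84% of those in Cov cells were called lower, so the counts are read beside these shares and not as particular to the family. At 50 nM 3 of the 10 were called lower in Ku cells (E2F1, E2F5 and E2F8), against 11.3% of active genes, and 9 in Cov cells, against 70.5%. None of the 10 was called higher. The share of active genes called higher was 0.0842% at 50 nM, 0.0491% at 250 nM and 0.0421% between the doses in Ku cells, and 0.0772%, 0.105% and 0.0842% in Cov cells. When any 1 of the 6 Ku libraries was left out, 0 of the 10 were called at 50 nM, and the share of active genes called lower was then 0.0421% to 0.919%.

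Between 50 and 250 nM, 7 of the 10 genes fell further in Ku cells (36% of active genes) and 4 in Cov cells (24.4%). E2F2, E2F3, E2F4 and E2F6 were called in both lines, and E2F1, E2F7 and E2F8 in Ku cells. With the replicate number added to the fit as a block, E2F4 was called in neither line (limma adjusted p = 0.0017 in Ku, 0.0027 in Cov cells). E2F7 was then not called in Ku cells (limma adjusted p = 0.0014). In Ku cells the count was 1 without the first replicate of 50 nM (5.89% of active genes) or of 250 nM (5.55%), and 2 without the second of 50 nM (11.2%) or of 250 nM (7.17%). The 3 groups followed the dose without overlap, DMSO highest and 250 nM lowest, for all 10 genes in Ku cells (66.7% of active genes) and for 8 in Cov cells (73.8%). The exceptions in Cov cells were TFDP1 and E2F8. A two-sided exact permutation test on 1 gene, with 2 libraries a group, has 0.33 as its smallest p.

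Sizes of the fall differed more than the calls. The median log2 fold change of the 10 genes at 250 nM was -2.37 in Ku cells, beside -1.11 for all active genes. For the 9 genes measured in Cov cells, without E2F8, it was -2.52, beside -1.31. The medians at 50 nM were -0.71 beside -0.40 for the 10 genes in Ku and -1.31 beside -0.85 for the 9 in Cov cells. E2F3 was the most lowered of the 10 at 250 nM in Cov cells, and on the log2(FPKM + 1) scale in Ku cells too. TFDP1 was the least lowered in Ku cells, and in Cov cells among the 9 that fell.

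**Figure D2:**
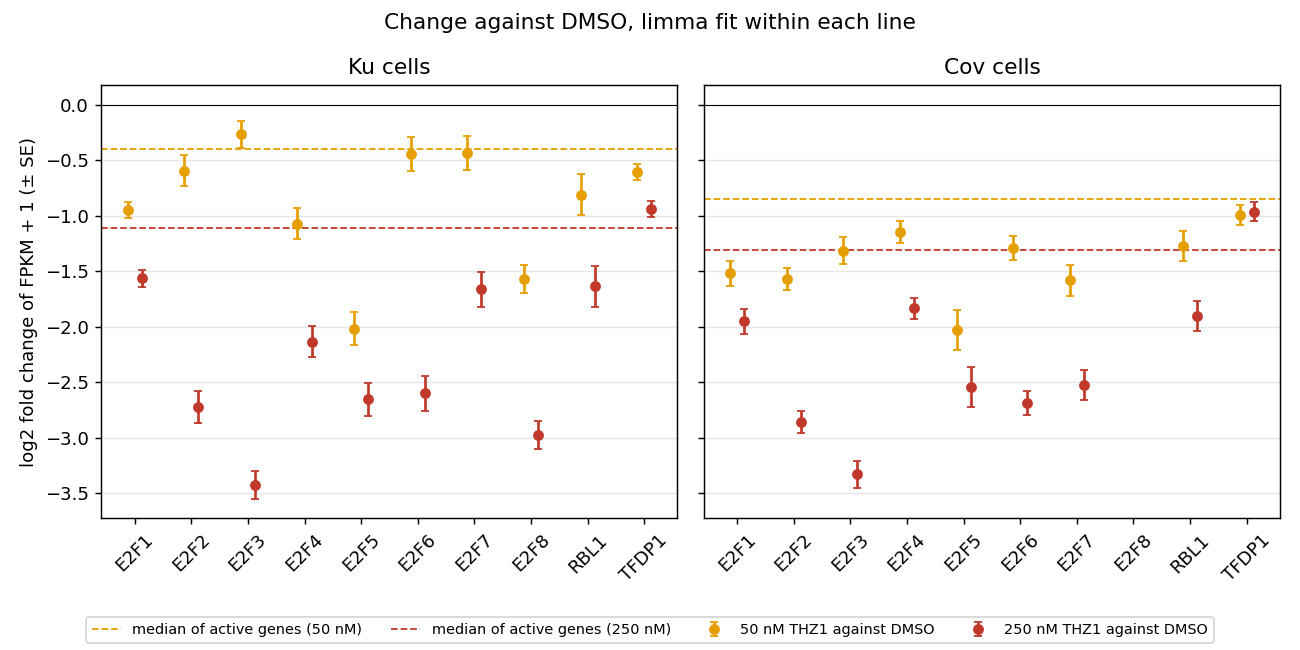
Log2 fold change of FPKM + 1 against DMSO (± SE, limma) at 50 nM and 250 nM THZ1 for each gene in Ku (left) and Cov (right) cells, with dashed lines at the median of 14251 active genes. E2F3 reaches -3.42 and -3.33 at 250 nM while TFDP1 stays at -0.94 and -0.96. E2F8 is not drawn for Cov cells.

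Of the activators, E2F3 fell the most and E2F1 the least at 250 nM in both lines, and at 50 nM E2F3 had the value nearest to 0. E2F3 measured 35.1 and 30.4 FPKM in Ku DMSO libraries, 28.8 and 25.2 at 50 nM, and 1.98 and 2.31 at 250 nM. The 50 nM libraries thus lay just under DMSO, and both 250 nM libraries were far below. The fold change at 50 nM was -0.27 (SE 0.12, limma adjusted p = 0.11), which did not pass, while 250 nM gave -3.42 (SE 0.12, limma adjusted p = 7.3e-06), and 6.54% of the DMSO level was left. The step from 50 to 250 nM was -3.16 in log2 units, and 0.519% of active genes had a lower value in that step.

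In Cov cells E2F3 measured 31.2 and 33.1 FPKM in DMSO, 11.3 and 13.4 at 50 nM, and 2.54 and 2.08 at 250 nM. Here the first dose already lowered it, by -1.31 (SE 0.12, limma adjusted p = 6.0e-05), and 250 nM by -3.33 (SE 0.12, limma adjusted p = 8.3e-07). The remaining level, 7.19% of DMSO, was close to that in Ku cells although the path differed. The difference between the lines was not tested.

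E2F2, the activator with the lowest DMSO level in both lines, measured 12.1 and 10.1 FPKM in Ku DMSO libraries, 7.005 and 6.998 at 50 nM, and 0.749 and 0.915 at 250 nM. It measured 15.2 and 16.3 in Cov DMSO libraries, 4.52 and 4.76 at 50 nM, and 1.23 and 1.40 at 250 nM. Groups did not overlap in either line, and 7.48% and 8.34% of DMSO were left at 250 nM. The fold changes at 250 nM were -2.72 (SE 0.14) in Ku and -2.86 (SE 0.10) in Cov cells. At 50 nM E2F2 gave -0.59 in Ku cells (limma adjusted p = 0.014), which did not pass, and in Cov cells it fell, with -1.57 (limma adjusted p = 2.3e-05).

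E2F1, the founding member of the family, measured 40.3 and 38.2 FPKM in Ku DMSO libraries, 19.5 and 20.2 at 50 nM, and 12.4 and 12.8 at 250 nM. Most of its loss came at the lower dose, and 32.1% was left at 250 nM, near the median of 36.3% over active genes. Cov libraries held 72.9 and 77.3 in DMSO, 25.04 and 26.08 at 50 nM, and 16.8 and 20.7 at 250 nM, which left 25% beside a median of 33%. The log2 fold changes were -0.95 and -1.56 in Ku cells at 50 and 250 nM (SE 0.076, limma adjusted p = 0.00044 and 1.2e-05) and -1.52 and -1.95 in Cov cells (SE 0.11, limma adjusted p = 2.9e-05 and 2.6e-06). In Cov cells the step from 50 to 250 nM, -0.43, did not pass (limma adjusted p = 0.013).

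E2F5 was the gene of the family that fell furthest at the lower dose. It measured 39.1 and 34.9 FPKM in Ku DMSO libraries, 9.70 and 7.21 at 50 nM, and 5.19 and 4.88 at 250 nM. The Cov values were 16.2 and 17.7 in DMSO, 2.65 and 4.28 at 50 nM, and 2.30 and 1.86 at 250 nM. Both 50 nM libraries were far below both DMSO libraries in each line, and 250 nM lay only a little lower. At 50 nM the fold changes were -2.02 (SE 0.15, limma adjusted p = 0.00038) in Ku and -2.03 (SE 0.18, limma adjusted p = 5.4e-05) in Cov cells, and 1.57% and 1.78% of active genes had lower values. The further steps of -0.64 and -0.51 did not pass the test (limma adjusted p = 0.0097 and 0.044).

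E2F3 and E2F5 thus differed in Ku cells in the dose at which most of their fall came. On the log2 FPKM scale 7.04% of the fall of E2F3 at 250 nM was already present at 50 nM, beside 74% of the fall of E2F5. In Cov cells these shares were 36.3% and 75.8%. E2F6 (14.9%), E2F2 (17.8%) and E2F7 (20.8%) were like E2F3 in Ku cells, while E2F1 (60%) and TFDP1 (64.8%) were nearer to E2F5.

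**Figure D3:**
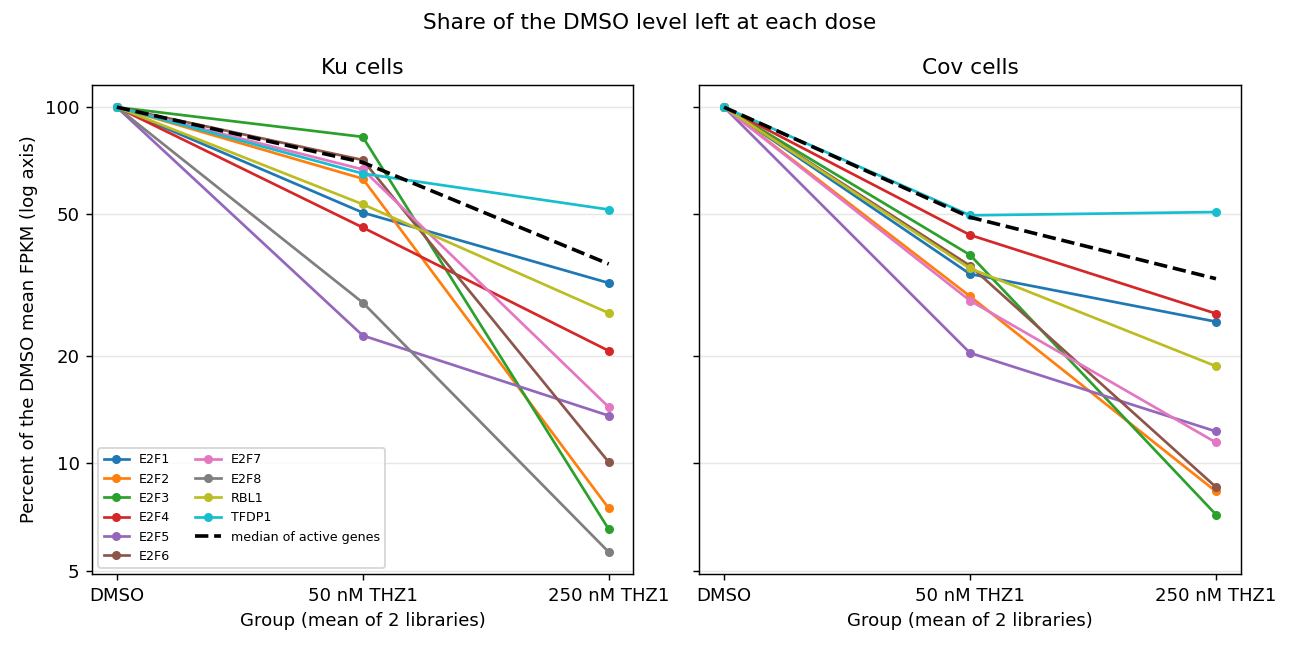
Mean FPKM of each gene (2 libraries) as a percent of its DMSO mean (log axis) in DMSO, 50 nM and 250 nM THZ1, with the median of active genes dashed. In Ku cells E2F3 keeps 82.5% at 50 nM and 6.54% at 250 nM, whereas E2F5 keeps 22.9% and 13.6%. E2F8 is not drawn for Cov cells.

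E2F4, the most abundant repressor in Cov cells, fell in both lines by less than E2F5. It measured 37.7 and 32.6 FPKM in Ku DMSO libraries, 16.26 and 16.02 at 50 nM, and 6.27 and 8.28 at 250 nM. The Cov replicates gave 39.96 and 43.96, then 18.3 and 18.4, then 10.3 and 11.8. Groups did not overlap, and 20.7% and 26.3% of DMSO were left at 250 nM. In Ku cells the fold change at 50 nM, -1.07, did not pass the adjusted p (limma adjusted p = 0.0018), while at 250 nM it was -2.13 (SE 0.14, limma adjusted p = 2.9e-05). It fell in Cov cells at both doses, with -1.15 and -1.83 (SE 0.098, limma adjusted p = 4.7e-05 and 2.1e-06).

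E2F6, which acts with Polycomb proteins, measured 14.4 and 11.7 FPKM in Ku DMSO libraries, 9.35 and 9.20 at 50 nM, and 1.11 and 1.52 at 250 nM. The Cov values were 11.4 and 13.0, 4.24 and 4.49, and 1.13 and 0.963. At 50 nM it was not called in Ku cells (-0.44, limma adjusted p = 0.053), and it kept 10.1% and 8.58% at 250 nM in Ku and Cov cells. The fold changes there were -2.60 (SE 0.16) and -2.69 (SE 0.11), with limma adjusted p = 2.2e-05 and 9.7e-07. Within the family its values were nearest to those of E2F2. This was the closest pair of the 9 genes other than E2F8, at a Euclidean distance of 0.568 over the 12 libraries. Distances were taken on log2(FPKM + 1) relative to the DMSO mean of each line. Genes outside the family lay nearer to both, at 0.27 from E2F6 and 0.197 from E2F2.

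E2F7, an atypical repressor, measured 4.66 and 3.44 FPKM in Ku DMSO libraries, 2.90 and 2.51 at 50 nM, and 0.506 and 0.659 at 250 nM. Cov replicates measured 13.1 and 14.3, 3.49 and 4.37, and 1.79 and 1.35. At 250 nM 14.4% and 11.4% were left. The fold changes were -1.66 (SE 0.15, limma adjusted p = 9.9e-05) and -2.52 (SE 0.14, limma adjusted p = 2.2e-06). The low level of E2F7 in Ku cells makes its fold change on FPKM + 1 smaller than its change in FPKM, and the call was lost without the first 250 nM replicate.

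E2F8, the other atypical repressor, fell at both doses in Ku cells. It measured 12.64 and 11.98 FPKM in DMSO, 3.71 and 3.26 at 50 nM, and 0.710 and 0.679 at 250 nM. The libraries formed 3 separate pairs, and 5.64% was left at 250 nM, the smallest share of the 10 genes. The fold changes were -1.57 (SE 0.12, limma adjusted p = 0.00042) and -2.97 (SE 0.12, limma adjusted p = 9.3e-06). With the replicate block the call at 50 nM was lost (limma adjusted p = 0.0011).

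In Cov cells E2F8 was listed at a value between 0.0890 and 0.110 FPKM, identical in each of the 6 libraries to a low value that 4896 genes shared in all 6. The tables hold no zeros, and no fold change is given for E2F8 in Cov cells. The antisense gene CSRP3-AS1 overlaps E2F8 in the annotation, and the sources used here do not say whether the FPKM were computed by strand, so reads of the pair may not be told apart in either line. Of 7726 genes with a mean above 10 FPKM in Ku DMSO libraries, 28, or 0.362%, were at the shared value in every Cov library. In the other direction the count was 27 of 8265, or 0.327%. The flanking genes on chromosome 11 were measured in Cov DMSO libraries: ZDHHC13 at 11.8 and 12.7 FPKM and NAV2 at 20.9 and 22.4 FPKM. CSRP3, which lies between ZDHHC13 and E2F8, was at or near the shared value in both lines.

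RBL1 encodes the pocket protein p107, a partner of E2F4 and E2F5. It measured 14.3 and 10.6 FPKM in Ku DMSO libraries, 7.503 and 5.822 at 50 nM, and 3.28 and 3.31 at 250 nM. Cov replicates measured 8.63 and 9.67, 2.73 and 3.72, and 1.80 and 1.63. The groups did not overlap in either line, although the Ku DMSO replicates were far apart. At 250 nM the fold changes were -1.63 (SE 0.18, limma adjusted p = 0.00024) and -1.90 (SE 0.14, limma adjusted p = 7.3e-06), and 26.4% and 18.7% were left. The Ku call was lost without the first DMSO replicate or without either 250 nM replicate.

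TFDP1 was lowered less than the median active gene at 250 nM. It measured 83.7 and 76.9 FPKM in Ku DMSO libraries, 54.1 and 50.5 at 50 nM, and 40.9 and 42.0 at 250 nM. The Cov values were 101.0 and 114.3 in DMSO, 52.6 and 54.4 at 50 nM, and 53.9 and 55.4 at 250 nM, so the treated groups overlapped. It kept 51.6% of DMSO in Ku and 50.8% in Cov cells, beside medians of 36.3% and 33%. The fold changes at 250 nM were -0.94 (SE 0.072, limma adjusted p = 4.7e-05) and -0.96 (SE 0.088, limma adjusted p = 2.4e-05). The step from 50 to 250 nM in Cov cells was 0.03 (SE 0.088, limma adjusted p = 0.80). Within a library TFDP1 ranked above 88.9% and 89.0% of active genes in Ku DMSO replicates and above 90.0% and 90.5% at 250 nM. In Cov cells the ranks were 89.7% and 90.0%, then 92.4% and 92.3%.

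Of the other pocket and DP genes, RB1, RBL2 and TFDP2 had log2 fold changes at 250 nM nearer to 0 than any E2F gene in Ku cells and than any of E2F1 to E2F7 in Cov cells. RB1, the retinoblastoma gene, measured 37.5 and 33.5 FPKM in Ku DMSO libraries and 23.3 and 21.7 at 250 nM, a log2 fold change of -0.63 (limma adjusted p = 0.00067). In Cov cells RB1 was low in every library, at 1.24 and 1.56 FPKM in DMSO and 0.773 and 0.960 at 250 nM, and its fold change of -0.36 was not called (limma adjusted p = 0.019). The added 1 FPKM holds this value near 0, and RB1 kept 61.85% of DMSO in Cov cells beside 63.33% in Ku cells. RBL2, which encodes the pocket protein p130, measured 10.9 and 9.10 FPKM in Ku DMSO libraries and 5.11 and 5.00 at 250 nM, and 12.3 and 13.3 then 5.45 and 5.25 in Cov cells. On the spike-in scale RBL2 fell in both lines, with -0.86 (limma adjusted p = 0.00092) and -1.12 (limma adjusted p = 4.2e-05), and with the replicate block it was not called in Ku cells (limma adjusted p = 0.0014). TFDP2 kept 43% and 39.2% of DMSO and was called in Cov cells (-1.15). In Ku cells its value of -1.04 was not called (limma adjusted p = 0.0015). The calls of these 3 genes depended on the scaling. On the equal-median scale 0 of the 3 were lower in either line, RB1 (1.29) and RBL2 (0.90) were called higher in Ku cells, and RBL2 (0.74) and TFDP2 (0.63) in Cov cells, beside 27% and 26.6% of active genes called higher. With median-of-ratios scaling 0 were lower in either line, and 1 was called higher in Ku and 0 in Cov cells, beside 11.1% and 8.57%. TFDP3 was at most 0.120 FPKM in any library.

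The ratio of RBL1 to RBL2 within a library went from 1.31 and 1.17 in Ku DMSO replicates to 0.642 and 0.663 at 250 nM, and from 0.699 and 0.726 to 0.331 and 0.311 in Cov cells. The ratio of E2F1 to RB1 was 1.08 and 1.14 in Ku DMSO and 59.0 and 49.4 in Cov DMSO libraries, where RB1 was low. At 250 nM it was 0.533 and 0.592, and 21.8 and 21.6. Both ratios were lower at 250 nM than in DMSO in both lines, with no overlap between the 2 libraries of each group.

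A ratio or a share within a library does not depend on a single scaling factor for that library. The FPKM of E2F1 to E2F8 summed to 184.7 ± 16.1 (SD, n = 2) in Ku DMSO cells, 94.0 ± 4.7 at 50 nM and 30.5 ± 2.2 at 250 nM, and to 207.9 ± 10.9, 72.8 ± 4.4 and 38.2 ± 2.9 in Cov cells. E2F1 made up 20.58% and 22.05% of this sum in Ku DMSO replicates, 20.1% and 22.3% at 50 nM, and 42.9% and 40.0% at 250 nM. The Cov shares were 36.4% and 35.9%, 35.9% and 34.4%, and 46.4% and 51.5%. Its share was thus higher at 250 nM in both lines.

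E2F3 made up 17.9% and 17.6% in Ku DMSO replicates, 29.6% and 27.8% at 50 nM and 6.85% and 7.19% at 250 nM, so its share was highest at the middle dose. In Cov cells its share was 15.6% and 15.3%, then 16.2% and 17.7%, then 7.01% and 5.17%. The ratio of E2F1 to E2F3 was 1.15 and 1.26 in Ku DMSO replicates, 0.678 and 0.801 at 50 nM, and 6.26 and 5.57 at 250 nM. The Cov ratios were 2.34 in both DMSO replicates, 2.21 and 1.94 at 50 nM, and 6.63 and 9.96 at 250 nM. E2F5 made up 19.9% and 20.1% in Ku DMSO replicates, 9.97% and 7.96% at 50 nM and 18.0% and 15.2% at 250 nM. In Cov cells its share was 8.11% and 8.19%, then 3.80% and 5.64%, then 6.36% and 4.63%, so both doses lay below DMSO and overlapped each other.

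The activators together made up 44.7% and 45.4% of the sum in Ku DMSO replicates, 56.9% and 57.9% at 50 nM, and 52.3% and 50.1% at 250 nM. The 3 groups did not overlap. In Cov cells the activator share was 59.6% and 58.7%, 58.6% and 58.3%, and 56.8% and 60.1%, and the 250 nM libraries lay on either side of DMSO. The difference between 250 nM and DMSO was 6.12 percentage points in Ku and -0.70 in Cov cells. With E2F6, E2F7 and E2F8 left out of the sum these became 2.34 and -4.66. No test was made of shares.

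**Figure D4:**
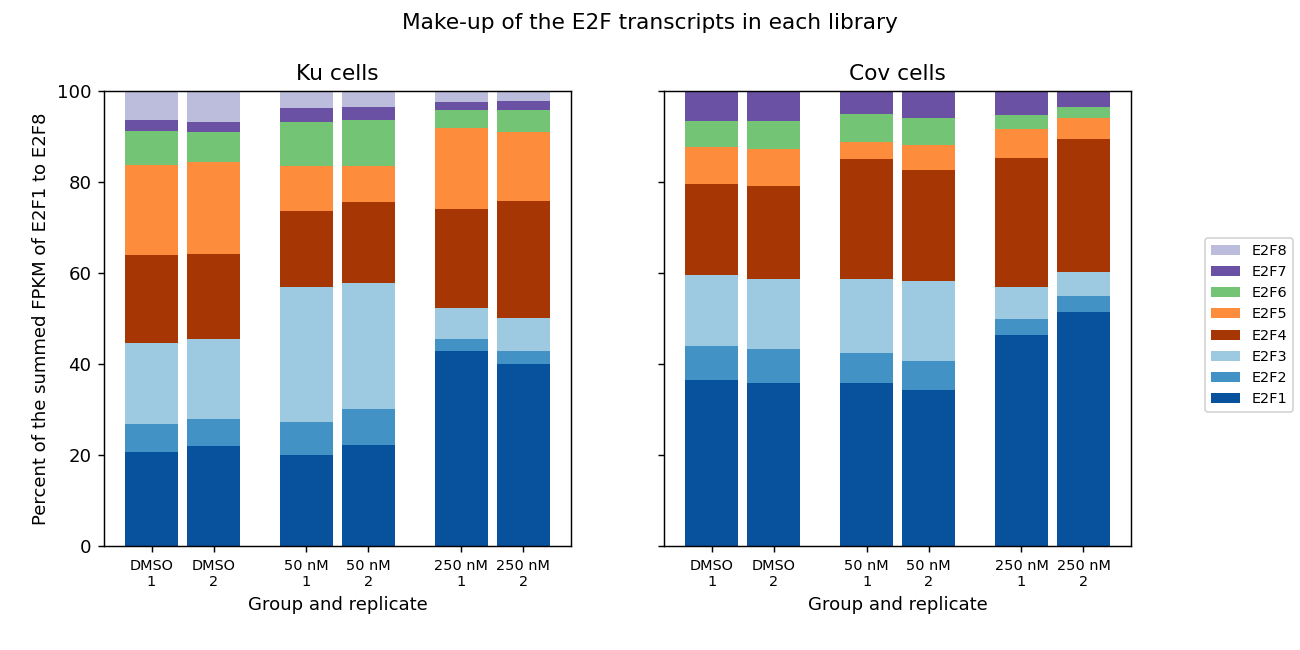
Share of each E2F gene in the summed FPKM of E2F1 to E2F8 (stacked bars, percent) in each of the 12 libraries. The E2F1 share is 40.0% to 42.9% in Ku cells and 46.4% to 51.5% in Cov cells at 250 nM, and the E2F3 share is 27.8% to 29.6% in Ku cells at 50 nM.

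Because most genes were lower after THZ1, the calls depend on the spike-in scale. On a scale that gave every library of a line 1 common median over active genes, here the equal-median scale, the median log2 fold change at 250 nM became 0.30 in Ku and 0.33 in Cov cells, and with a median-of-ratios scaling it was 0.00 and 0.01. On the equal-median scale 4 of the 10 genes were called lower in Ku cells (E2F2, E2F3, E2F6 and E2F8), against 11.7% of active genes, and 3 in Cov cells (E2F2, E2F3 and E2F6), against 11.3%. TFDP1 was called higher on it in both lines, at 1.02 and 1.09, where 27% and 26.6% of active genes were called so. With median-of-ratios scaling 6 genes were called lower in Ku (19%) and 4 in Cov cells (18.9%), and TFDP1 was called higher in Cov cells (0.63, against 8.57% of active genes). In Ku cells its 0.50 was not called. E2F2, E2F3 and E2F6 were called lower at 250 nM in both lines on all 3 scales. The share of active genes that met all of these conditions was not counted, so this is not read as particular to the family. E2F1 turned positive on the equal-median scale in both lines (0.33 and 0.07), as did RBL1 in Ku cells (0.07) and E2F4 in Cov cells (0.14), and these 4 values were not called.

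The lower dose left few calls on these scales. At 50 nM no member was called lower on the equal-median scale in either line (0.589% of active genes in Ku, 0.154% in Cov cells), and with median-of-ratios scaling E2F5 was called in Ku cells (2.72%) and none in Cov cells (0.772%). No member was called higher at 50 nM, beside 0.0982% and 0.519% of active genes on these scales in Ku cells and 0.0912% and 0.14% in Cov cells. Between the doses E2F3 and E2F6 were called lower on both scales in both lines, and the joint share of active genes was not counted. The equal-median scale gave 3 calls for Ku (6.59%) and 2 for Cov (5.05%), while median-of-ratios scaling gave 4 (11.1%) and 3 (7.92%). TFDP1 was called higher between the doses in both lines on both scales, where 6.62% and 1.39% of active genes were in Ku cells and 3.22% and 0.498% in Cov cells.

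The wider pathway was read from 8 gene lists with 100 genes, of which 98 were active. At 250 nM 89 of the 98 (90.8%) fell in Ku and 95 (96.9%) in Cov cells, beside 68.6% and 84% of all active genes, with medians of -1.56 and -1.86 beside -1.11 and -1.31 for all active genes. At 50 nM 16 (16.3%, beside 11.3%) fell in Ku and 84 (85.7%, beside 70.5%) in Cov cells. Among genes above 10 FPKM in at least 1 library the shares called lower were nearer to these. At 250 nM they were 82.5% in Ku and 94% in Cov cells, and at 50 nM 15.5% and 80.3%. The 16 became 0 or 1 when any 1 library was left out, and the 84 became 46 without the second Cov DMSO replicate. No listed gene was called higher. On the equal-median scale the 98 split at 250 nM into 16 called lower (16.3%) and 31 called higher (31.6%) for Ku, beside 11.7% and 27% of active genes, and into 18 (18.4%) and 28 (28.6%) for Cov, beside 11.3% and 26.6%. The balance was the other way with median-of-ratios scaling. It gave 34 called lower and 15 higher for Ku, beside 19% and 11.1% of active genes. For Cov it gave 35 and 7, beside 18.9% and 8.57%. The shares of active genes given here for each scale apply also to the counts of the single lists.

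All 8 genes of the MuvB and DREAM list, which holds the complex that RBL1 or RBL2 forms with E2F4 and its mitotic relatives, were lower at 250 nM in both lines, with medians of -1.90 and -2.12, where 68.6% and 84% of all active genes were. On the equal-median scale 2 were called lower and 2 higher in Ku cells, and 2 and 3 in Cov cells. Median-of-ratios scaling gave 4 lower and 1 higher in Ku cells, and 5 and 1 in Cov cells. LIN37 (-2.82) fell the most in Ku cells and RBBP4 (-0.74) the least, and in Cov cells LIN9 (-2.62) and FOXM1 (-0.93) did. All 10 genes of the E2F6 Polycomb complex fell in both lines (medians -1.83 and -1.94), with MGA, which binds DNA within it, the furthest (-2.42 and -2.20). CBX3 (-0.96) fell the least in Ku cells and YAF2 (-1.48) in Cov cells. The equal-median scale left 1 called lower and 1 higher for Ku, and 1 and 0 for Cov. Median-of-ratios scaling left 5 and 0 for Ku, and 1 and 0 for Cov.

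Of 14 active G1 cyclins, kinases and inhibitors 13 fell in each line (equal-median scale: 2 lower and 3 higher for Ku, 4 and 5 for Cov), and CDKN1C did not pass (-0.50 and -0.52). CDKN1B, the inhibitor p27, fell the most in Ku cells (-3.91), and CCNE2, a cyclin E gene, in Cov cells (-3.25). Median-of-ratios scaling gave these 14 genes 4 lower and 0 higher calls for Ku, and 4 and 1 for Cov. Of 30 G1/S targets of E2F, 26 fell in Ku and 30 in Cov cells, with medians of -0.97 and -1.73, and the Ku median was closer to 0 than that of all active genes. CDT1, a replication licensing factor, fell the most in Ku cells (-2.97), where CDC45 gave -0.38 and was not called. In Cov cells CDC25A, a phosphatase that activates cyclin-dependent kinases, fell the most (-3.87) and TK1, thymidine kinase, the least (-0.92). The equal-median scale put 20 of the 30 among the higher calls for Ku and 14 for Cov, beside 27% and 26.6% of active genes, and 2 and 4 among the lower calls. With median-of-ratios scaling 11 were called higher for Ku and 2 for Cov, and 5 and 9 lower.

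All 20 G2/M targets fell in both lines, with medians of -1.98 and -2.05, and AURKA, a mitotic kinase, fell the most (-4.37 and -4.29). On the equal-median scale 3 were lower and 1 higher for Ku, and 4 and 2 for Cov. Median-of-ratios scaling gave 10 lower and 0 higher for Ku, and 9 and 1 for Cov. NUSAP1 (-1.11) in Ku cells and BIRC5 (-1.05) in Cov cells were the least lowered. Of 6 genes for E2F turnover 5 fell in Ku and 6 in Cov cells (equal-median scale: 3 lower and 2 higher, 2 and 2). CCNF, which encodes a cyclin that marks E2F proteins for degradation, fell the most (-3.90 and -3.96), while SKP1 was not called in Ku cells (-0.32) and fell in Cov cells (-0.93). Median-of-ratios scaling gave these 6 genes 3 lower and 2 higher calls for Ku, and 4 and 2 for Cov. Of 7 apoptosis genes linked to E2F1, 5 fell in Ku and 6 in Cov cells (equal-median scale: 3 lower and 0 higher, 1 and 0). BBC3 fell the most in Ku cells (-2.52), while PMAIP1 in Ku cells (-0.98) was not called. Median-of-ratios scaling gave these 7 genes 3 lower and 0 higher calls in each line. TP73, at 4.90 and 4.50 FPKM in Ku DMSO libraries, was under 1 FPKM in every Cov library, at 0.557 and 0.441 in DMSO and 0.221 and 0.207 at 250 nM. Its value of -0.30 there, not called, is held near 0 by the added 1 FPKM, and 42.8% of the DMSO level was left.

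**Figure D5:**
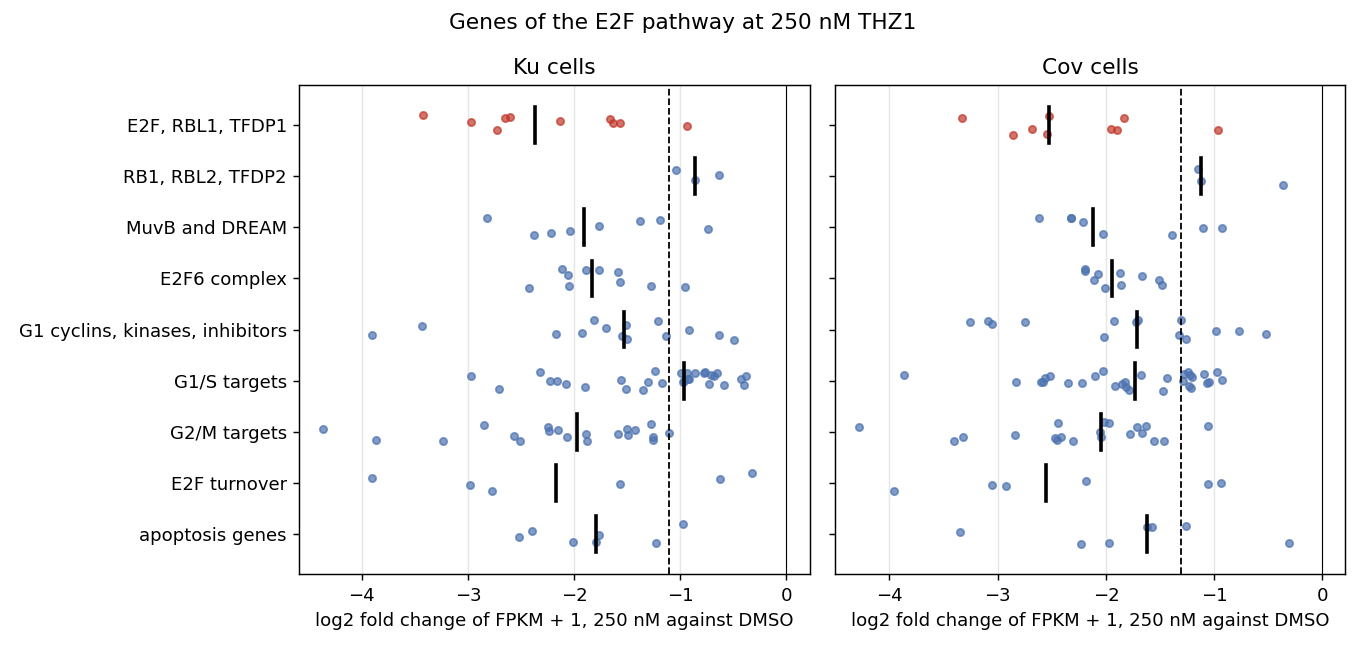
Log2 fold change of FPKM + 1 at 250 nM THZ1 against DMSO for the family (red) and for the active genes of 8 pathway lists (blue) in Ku and Cov cells, with a bar at the median of each list and a dashed line at the median of all active genes (-1.11 and -1.31). E2F8 is not drawn for Cov cells. All 20 G2/M targets fell in both lines, and the G1/S targets in Ku cells have a median of -0.97.

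Genes with the profile nearest to each member were sought over all 12 libraries by Euclidean distance on log2(FPKM + 1) relative to the DMSO mean of each line. Small distances were those of E2F2 to FRMD8 (0.197), RBL1 to VAPB (0.197) and E2F4 to TRMT2A (0.225). Within the family E2F1 and RBL1 (0.638) were the second closest pair after E2F2 and E2F6, and E2F8 was left out. These distances are descriptions over libraries that share their DMSO samples.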

How the data were processed

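RNA-seq of 12 libraries was analysed. Per the labels and the study's methods, cell count normalized RNA received ERCC spike-ins, stranded mRNA libraries were sequenced as single-end reads, and reads were aligned to hg19 with HISAT by the authors. They deposited spike-in normalized FPKM from Cufflinks and Cuffnorm, 1 table per line. Versions are not given in the sources used here. FPKM are not counts, so edgeR, which the study names, was not used. The 92 ERCC rows were left out.

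In R 4.3.3, limma 3.58.1 was fitted within each line to log2(FPKM + 1) of 14251 active genes (FPKM above 1 in at least 1 library), with 3 groups of 2 libraries, lmFit, eBayes with trend, two-sided tests and Benjamini-Hochberg adjustment over active genes. Calls needed both an adjusted p under 0.001 and an absolute log2 fold change above 0.5. The fit was tested on simulated data. Lines were not tested against each other. The step from 50 to 250 nM came from the same fit.

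The 10 genes and the pathway lists, which were written from general knowledge, were chosen with earlier results of these data known. Named were all 10 genes, RB1, RBL2, TFDP2 and TFDP3, the most and least lowered active gene of each other list at 250 nM in each line, and the 4 nearest genes by profile, except that 2 genes this rule names are not reported here; genes beside E2F8 were added after its values were seen. Positions are from GENCODE on GRCh37, promoters from RefSeq (GRCh38.p14). Alternatives were a pseudocount of 0.1, other minimums of FPKM, subtraction of each library's lowest value, 2 other scalings, a fit of 2 groups, a replicate block, no trend, other thresholds, and each library left out. Python 3.11.15 with matplotlib 3.10.9 drew the figures.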

Additional observations from a re-analysis of the deposited data

How the results depend on the processing

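Members called lower became 0 on the equal-median scale and 1 with median-of-ratios scaling in Ku cells at 50 nM (3 as reported), 4 and 6 at 250 nM (10), and 3 and 4 between doses (7). In Cov cells they became 0 and 0 at 50 nM (9), 3 and 4 at 250 nM (9), and, on the equal-median scale, 2 between doses (4). Pathway genes called lower became 0 and 2 in Ku cells at 50 nM (16), 16 and 34 at 250 nM (89), 0 and 1 in Cov cells at 50 nM (84), and 18 and 35 at 250 nM (95). The sign at 250 nM turned on the equal-median scale for E2F1 (0.33 in Ku, 0.0675 in Cov), RBL1 in Ku (0.0708), E2F4 in Cov (0.14) and TFDP1 (1.02 and 1.09), and with median-of-ratios scaling for TFDP1 (0.50 and 0.63). With no minimum FPKM, 0 members and 0 pathway genes were called in Ku cells at 50 nM (0.0127% of all genes tested) and 3 members between doses (8.05%), and with only the 2 groups compared 0 and 0 at 50 nM (0.0632%). The cause was not tested. An adjusted p under 0.05 gave 7 members and 47 pathway genes in Ku cells at 50 nM (40.2%) and 7 members between doses in Cov cells (41.5%). A log2 fold change beyond 1 gave 49 pathway genes in Cov cells at 50 nM (35.5%). Without E2F6 to E2F8 the activator share difference was 2.34 in Ku and -4.66 percentage points in Cov cells.

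Leaving out 1 library gave 0 members and 0 to 1 pathway genes in Ku cells at 50 nM (0.0421% to 0.919% of active genes called lower), 8 to 10 and 72 to 83 at 250 nM (42.7% to 63.5%), and 1 to 5 members between doses (5.55% to 32.3%). In Cov cells it gave 8 to 9 members and 46 to 84 pathway genes at 50 nM (30.3% to 69.7%), 9 to 9 and 94 to 95 at 250 nM (73.3% to 86.6%), and 3 to 5 members between doses (10.7% to 27.9%). The activator share difference ranged from 5.00 to 7.24 in Ku and from -2.34 to 0.94 in Cov cells, where it turned positive without the first 250 nM replicate. The replicate numbers did not pair the samples (correlations of deviations between -0.0703 and 0.0282). With the replicate block the members called lower in Ku cells were 2 at 50 nM (6.94% of active genes), 10 at 250 nM (66.6%) and 5 between doses (34.7%). In Cov cells they were 9 (51%), 9 (78.6%) and 3 (7.93%). With unknown depth, differences among the lowest FPKM cannot be given an error from counting.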
